A study of Xenopus tropicalis with 8 samples.

Results

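Pinopsin and 3 genes of the photoreceptor cell, gucy2d, pde6c and rom1, were followed through 8 arrays of whole-embryo RNA from the western clawed frog Xenopus tropicalis. These 4 genes were taken by name, and every probe whose transcript accession belongs to one of them was used. That gave 4 probes on 6 spots, among 32899 probes and 5617 named genes on the array. Because the 4 genes were picked with their response to the dye already known, their values are given as a description. Where a fit over all probes calls them or loses the call, nothing is read from it. Each of the 4 probes is one that the array design names as specific, and none is a cross-hybridising probe.

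The embryos developed either untreated or in the presence of Disperse Yellow 7 (DY7), an azo dye used on textiles. The control group was labelled as having no treatment, and the treated group was labelled with 887 ppm DY7; the labels do not say to which medium that concentration refers. Both groups covered the same developmental window, embryonic stage 12 to stage 46. Each group had 4 samples of total RNA, labelled with the dye Cy3 and read on single-colour Agilent arrays, 1 sample to an array. The labels do not say whether a solvent control was included, whether embryos were pooled, or whether the 4 samples of a group came from separate clutches, so p-values refer only to the spread between these samples.

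Pinopsin is a light-absorbing opsin first described in the pineal organ of the chicken, and the pineal of frog tadpoles is itself a light-sensing organ. In vertebrate photoreceptors, an opsin hit by light acts through a G protein on a phosphodiesterase that breaks down cyclic GMP, and membrane guanylate cyclases then make that messenger anew. The product of pde6c is the catalytic subunit of the cone phosphodiesterase, and gucy2d encodes a photoreceptor guanylate cyclase. Rom1 is a tetraspanin that joins its relative peripherin (prph2) at the rims of the membrane discs in the outer segment, the light-catching part of the cell. In RNA from whole embryos, fewer cells of a type and less RNA per cell cannot be told apart.

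The 8 arrays lay on 2 slides of 4, and slide 1 held replicate numbers 1 and 2 of both groups while slide 2 held numbers 3 and 4. Between 51.6% and 75.9% of probes per array were well above background, the lowest share being that of control 2. The 75th percentile of processed intensity ran from 162 to 327 on control arrays and from 126 to 202 on DY7 arrays. Levels below are log2 processed intensities from which that percentile of the same array, also in log2, was taken off, so 0 means a level equal to it, and the errors of group means are SD with n = 4. Over the whole array, limma called 2867 of 20289 tested probes at an adjusted p under 0.05, 1839 higher and 1028 lower in DY7. The median log2 difference of all tested probes was 0.06.

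**Figure D1:**
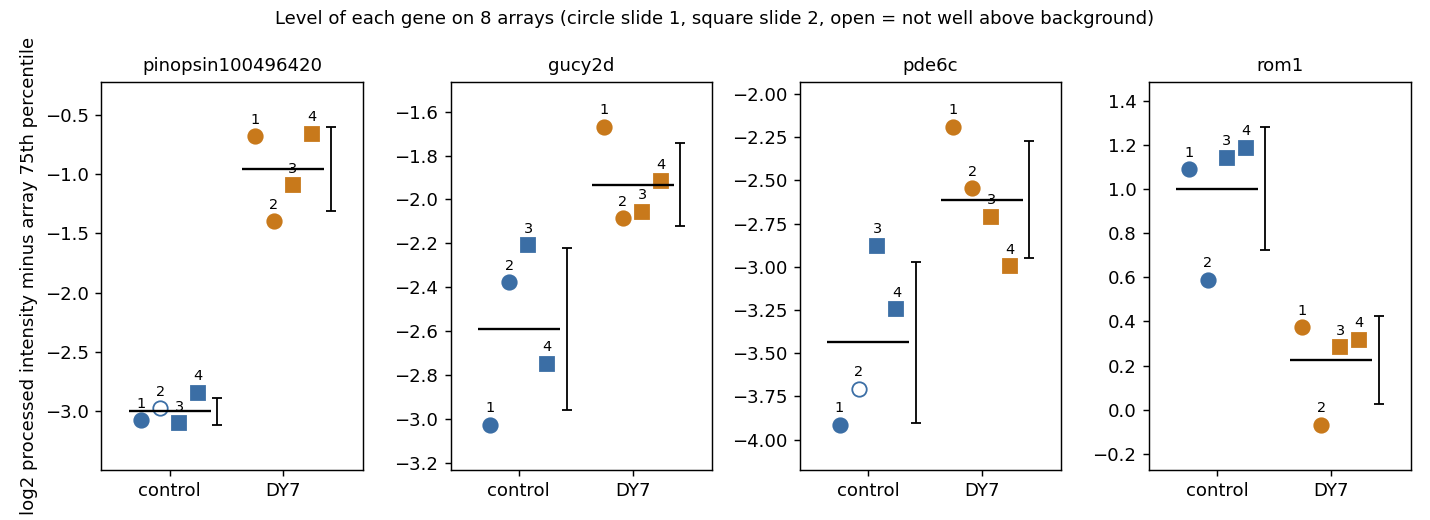
Level of each of the 4 genes on each array, in log2 relative to the 75th percentile of its array (vertical axis, a scale of its own in each panel), for control and DY7 arrays numbered by replicate. Lines are group means, bars are SD over 4 arrays, circles are slide 1, squares are slide 2 and open symbols were not well above background. The pinopsin groups are 1.45 log2 units apart at their nearest points, the gucy2d groups 0.12 and the rom1 groups 0.21, while the pde6c groups overlap.

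Of the 4, pinopsin differed most between the groups. The gene, listed in the gene table as pinopsin100496420, had control levels of -3.08, -2.97, -3.10 and -2.85 in replicates 1 to 4. Its DY7 levels were -0.68, -1.40, -1.10 and -0.66. All 4 DY7 arrays lay above all 4 control arrays, and the nearest pair, control 4 and DY7 2, stood 1.45 log2 units apart.

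The pinopsin group means were -3.00 ± 0.12 in controls and -0.96 ± 0.36 in DY7, a log2 difference of 2.04 ± 0.17 (SE), or 4.11-fold. The spread was thus wider among the DY7 arrays than among the controls. Only 5 of the 20289 tested probes had a larger rise in the same fit. Read by its brightest tested probe, no named gene had a larger rise in that fit, though only 17.9% of probes on the array were named. The rank depended on the processing. With normexp background correction, the rises of xa-1 (1.36) and fabp6 (1.33) were larger than that of pinopsin (0.72). They were also larger after extreme local backgrounds were reset, at 1.42 and 1.11 beside 1.07. Since pinopsin was chosen on this comparison, nothing is read from its rank. As a share of the 75th percentile of the array, the pinopsin signal was 11.6% to 13.9% in controls and 37.9% to 63.3% in DY7.

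Before any scaling between arrays, pinopsin intensities in controls 1 to 4 were 28.8, 20.6, 26.0 and 45.4. The DY7 intensities were 105, 47.6, 84.6 and 128. On that unscaled reading the 2 groups still did not overlap, but DY7 2 (47.6) stood only just above control 4 (45.4). Control 2 was not well above background for this probe, and the other 3 controls and all 4 DY7 arrays were. The probe therefore entered the fit through its DY7 arrays. The lowest signal called well above background was 21.8 on control 2. Before background correction, the pinopsin spot medians on controls 1 and 2 were 56 to 69 beside local backgrounds of 53 to 63. On controls 3 and 4 they were 63 to 89 beside 39 to 41. The control level, and with it the fold, therefore rests on dim readings.

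The pinopsin probe was printed on 2 spots of each array, which gives the reading a technical repeat. Both spots on an array differed by 0.03 to 0.23 on the log2 scale. Spot 1 alone gave a log2 difference of 2.02 between the groups and spot 2 alone gave 2.06. In the authors' deposited log2 values, controls ran from 4.36 to 4.89 and DY7 arrays from 6.11 to 6.96, and the groups were again apart. The difference between arrays of the same replicate number was 2.39, 1.57, 2.01 and 2.19 for numbers 1 to 4, and within slides it was 1.98 on slide 1 and 2.10 on slide 2.

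**Figure D2:**
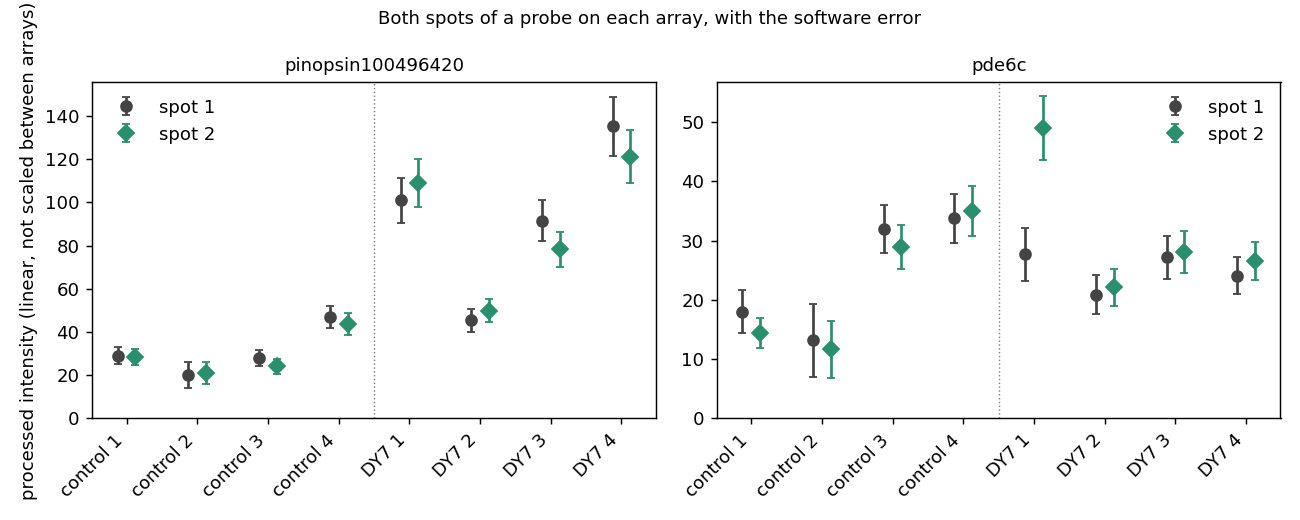
Linear processed intensity (vertical axis, not scaled between arrays) of both spots of the pinopsin probe and of the pde6c probe on each array, with bars for the error given by the scanner software. The 2 pinopsin spots lie close together on every array, whereas the pde6c spots on DY7 1 read 27.7 and 49.0.

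The guanylate cyclase gene gucy2d, which restores cyclic GMP after light, differed less. Its control levels were -3.03, -2.38, -2.21 and -2.75, and its DY7 levels were -1.67, -2.09, -2.06 and -1.92. The groups did not overlap, but control 3 and DY7 2 were only 0.12 log2 units apart. The means were -2.59 ± 0.37 in controls and -1.93 ± 0.19 in DY7, a log2 difference of 0.66 ± 0.18 (SE), or 1.58-fold.

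Much of the gucy2d difference came from 2 of the 4 replicate numbers. It was 1.36 for number 1 and 0.83 for number 4, against 0.29 for number 2 and 0.15 for number 3. The probe was well above background on all 8 arrays, with unscaled intensities of 29.8 to 48.5 in controls and 29.6 to 53.6 in DY7, ranges that overlapped. Without scaling the log2 difference was 0.38 on slide 1 and -0.01 on slide 2, compared with 0.83 and 0.49 after scaling. In the authors' deposited log2 values control 2, at 5.53, lay above DY7 2 at 5.41 and DY7 3 at 5.38, so the groups overlapped there. The call in the fit over all probes was lost when the replicate number or the slide was entered as a block and when the authors' deposited values replaced the scaled intensities. It was also lost without DY7 1, DY7 2, DY7 3, DY7 4, control 1 or control 4, each left out alone. Other settings that lost the gucy2d call were quantile and median scaling, no scaling and no filter on dim probes. Normexp background correction lost it too, with or without extreme local backgrounds reset.

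The cone phosphodiesterase gene pde6c, whose product breaks down cyclic GMP in light, had control levels of -3.92, -3.71, -2.88 and -3.25. Its DY7 levels were -2.19, -2.55, -2.71 and -3.00. Control 3 stood above DY7 4, so the groups overlapped, and the rest of the controls lay below every DY7 array. Group means were -3.44 ± 0.47 and -2.61 ± 0.34, a log2 difference of 0.83 ± 0.24 (SE), or 1.77-fold.

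This difference was unequal between the slides. The pde6c difference was 1.44 log2 units on slide 1 and 0.21 on slide 2, and by replicate number it was 1.72, 1.16, 0.17 and 0.25. Without scaling, the slide 2 arrays turned to the opposite sign, with a difference of -0.29 against 0.99 on slide 1. In the authors' deposited log2 values the highest control reached 4.50 and the lowest DY7 array 4.58, so there the groups were narrowly apart.

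The pde6c probe was also near the floor of detection. Unscaled intensities were 12.4 to 34.4 in controls and 21.5 to 36.8 in DY7, and control 2 was not well above background. The lowest signal called well above background ran from 9.04 to 21.8 over the 8 arrays and was highest on control 2. On DY7 1, the array with the highest pde6c level, its 2 spots read 27.7 and 49.0, a gap of 0.82 log2 units that was 3.05 times the combined software error. On the other 7 arrays the gap was 0.05 to 0.33. Spot 1 alone gave a difference of 0.61 between the groups, and spot 2 alone gave 1.04.

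The disc-rim tetraspanin gene rom1 differed in the opposite direction. Its control levels were 1.09, 0.59, 1.14 and 1.19, and its DY7 levels were 0.37, -0.07, 0.28 and 0.32. All 4 controls lay above all 4 DY7 arrays, and the nearest pair, control 2 and DY7 1, were 0.21 log2 units apart. The group means were 1.00 ± 0.28 and 0.23 ± 0.20, a log2 difference of -0.78 ± 0.16 (SE), so that DY7 embryos were 1.71-fold lower.

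The rom1 difference was the most even of the 4 over replicate numbers, at -0.72, -0.66, -0.86 and -0.87. Arrays of number 2 were the lowest of their group in both conditions. The probe was bright, with unscaled intensities of 244 to 744 in controls and 120 to 252 in DY7, and was well above background throughout. Without scaling, DY7 4 at 252 stood above control 2 at 244, and the log2 difference was larger, -1.13 on slide 1 and -1.36 on slide 2. Its call in the fit over all probes was lost without control 1 and without control 4, where the difference was -0.75 and -0.71. The rom1 call was also lost with normexp background correction and with no filter on dim probes.

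**Figure D3:**
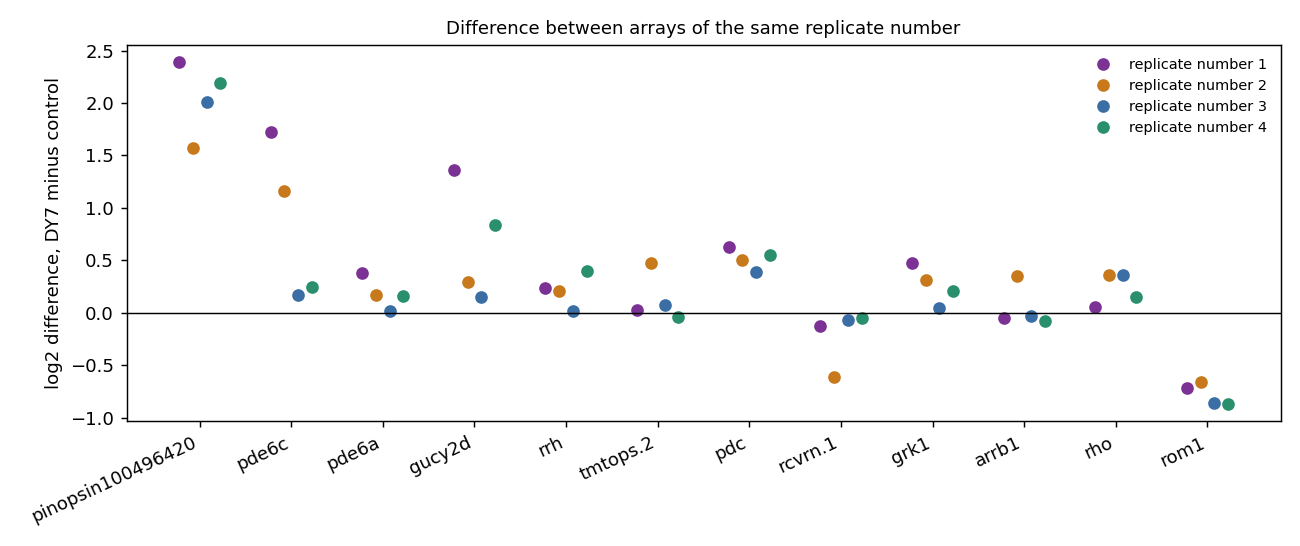
Log2 difference between the DY7 and control arrays of the same replicate number (vertical axis) for pinopsin, rom1 and the 10 tested phototransduction genes, gucy2d and pde6c among them, coloured by number. Pinopsin lies between 1.57 and 2.39 and rom1 between -0.87 and -0.66, while 6 of the 10 phototransduction genes are lowest at number 3, 2 at number 4, 1 at number 2 and 1, rho, at number 1.

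In the fit over all probes, 3 of the 4 genes were called, 2 higher and 1 lower, where 14.1% of all tested probes were called (9.06% higher and 5.07% lower). The groups were apart for the same 3 genes, as they were for 21.6% of all tested probes (12.7% higher and 8.86% lower). Since these genes were chosen on this comparison, nothing is read from those counts.

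Pinopsin, gucy2d and pde6c ran together over the 8 arrays, with Pearson r of 0.81 between pinopsin and gucy2d, 0.74 between pinopsin and pde6c, and 0.85 between gucy2d and pde6c. Those values contain the difference between the groups. Taken as deviations from the group means, the correlation was 0.62 for gucy2d with pde6c, 0.29 for pinopsin with gucy2d and -0.02 for pinopsin with pde6c. Rom1 correlated negatively with pinopsin over all arrays, at -0.81, and positively, at 0.49, once the group means were taken out. All 4 genes were read on the same arrays and share each array's scaling, and these figures are given as descriptions.

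Other genes of light sensing were read from lists for phototransduction, photoreceptor structure, photoreceptor transcription, the visual cycle, the pineal and the circadian clock. Without the 4 genes above, the lists had 55 genes on the array, of which 34 were tested, 24 by specific and 10 by cross-hybridising probes. Limma called 1 of the 34 higher and 2 lower, 8.82% in all, where 14.1% of all tested probes were called. Their median log2 difference was 0.01, with a range of -0.83 to 0.76, beside 0.06 for all tested probes. When the replicate number was entered as a block, limma called 8 of the 34, 5 higher (rbp2, pdc, kif3a, sall3 and hlf) and 3 lower (per1, ush1c and bbs2), where 25.3% of all tested probes were called (16% higher and 9.25% lower). The probes of rbp2, pdc and kif3a were not well above background on control 2. They entered the fit only through the DY7 arrays, where they are higher, so their calls are not read as support for a rise.

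**Figure D4:**
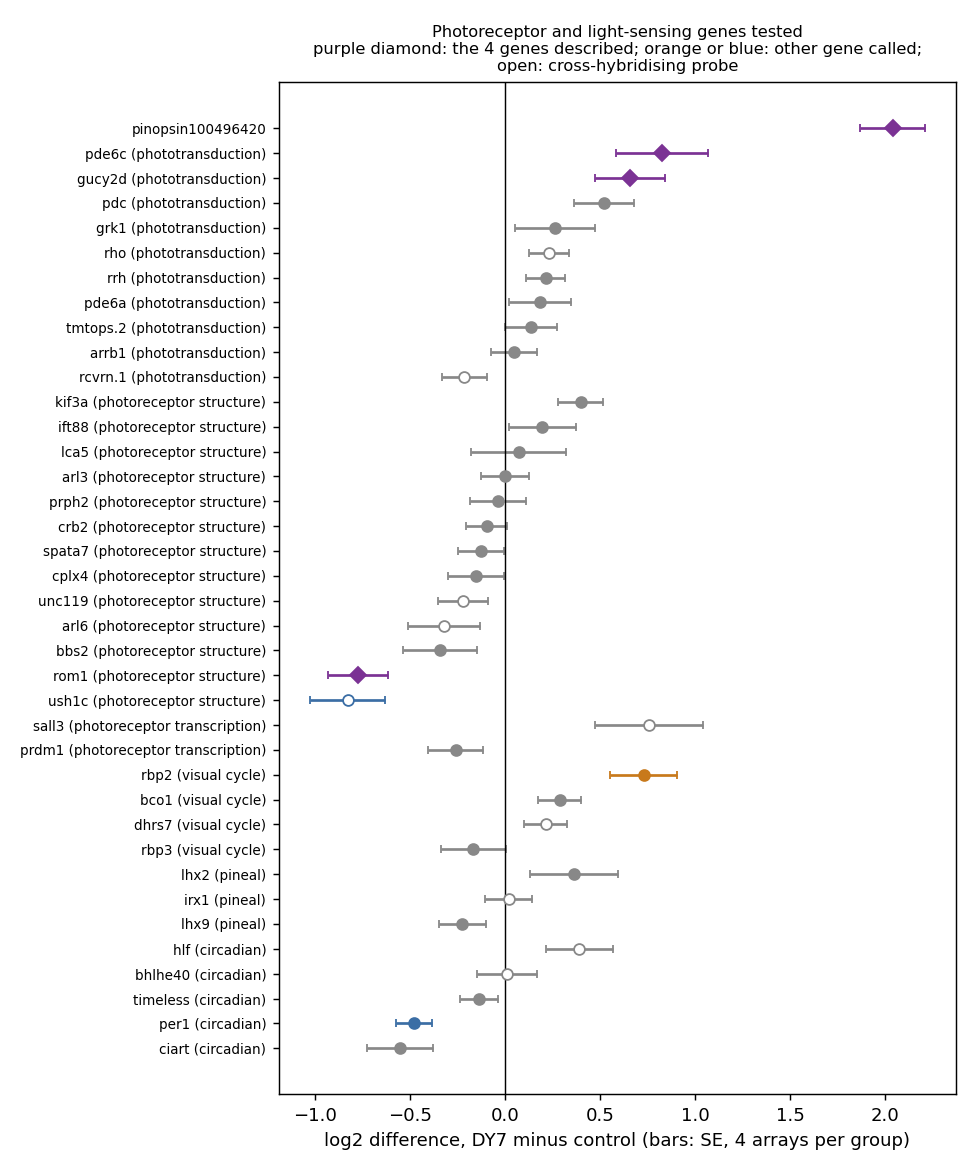
Log2 difference between DY7 and control, DY7 minus control (horizontal axis, bars SE, 4 arrays per group), of the 34 tested genes of the light-sensing lists and of the 4 genes described, with open symbols for cross-hybridising probes. Apart from the 4 genes, marked by diamonds, rbp2 is called higher and per1 and ush1c are called lower.

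The phototransduction genes lay mostly above 0 by small amounts, and none passed the test. Of 14 on the array, 8 were tested, limma called 0 and 1 (pdc) had an unadjusted p under 0.05. The differences of 7 were positive and that of 1 was negative, with a median of 0.20, and without scaling between arrays 1 was positive and 7 were negative. Normexp background correction gave 5 positive and 3 negative. Median scaling, the fit without control 2 and the fit within slide 2 each gave 6 positive and 2 negative. Signs were not counted over all tested probes, so nothing is read from these counts. The largest difference was that of pdc, phosducin, which binds the beta and gamma subunits of the photoreceptor G protein. Its control levels were -3.09, -2.84, -2.41 and -2.88 and its DY7 levels -2.46, -2.33, -2.02 and -2.33, with control 3 above DY7 1, and control 2 was not well above background. The difference was 0.52 ± 0.16 with a limma adjusted p of 0.0546, and with the replicate number as a block pdc was called higher (limma adjusted p = 0.0133), as it was with the slide as a block (limma adjusted p = 0.0416).

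Other tested phototransduction genes had smaller differences than gucy2d and pde6c, none past the threshold. No other photoreceptor guanylate cyclase was tested. The rod phosphodiesterase subunit pde6a differed by 0.18 ± 0.16 (limma adjusted p = 0.453) and grk1, the kinase that shuts off activated rhodopsin, by 0.26 ± 0.21 (limma adjusted p = 0.403). Rhodopsin itself, rho, differed by 0.23 ± 0.10, read by a cross-hybridising probe (limma adjusted p = 0.150). Among opsins outside the visual cells, rrh, the peropsin of the retinal pigment epithelium, differed by 0.21 ± 0.10 and tmtops.2, a teleost multiple tissue opsin homologue, by 0.14 ± 0.14. The calcium-binding recoverin gene rcvrn.1 differed by -0.21 ± 0.12, also on a cross-hybridising probe. The photoreceptor cyclase gucy2f, the cyclase activators guca1b and guca1c, the opsins opn4 and opn5 and the exchanger slc24a4 were too dim to be tested.

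Control 3 was the highest control for 6 of the 10 tested phototransduction genes, counting gucy2d and pde6c, and DY7 3 was the highest DY7 array for 3 of them. For pde6a the 4 same-number differences were 0.38, 0.17, 0.02 and 0.16, and for grk1 they were 0.48, 0.31, 0.05 and 0.21. Of the 10 genes, 6 had their lowest same-number difference at number 3 (gucy2d, pde6c, pde6a, pdc, grk1 and rrh), while rho had its highest there, at 0.36. The lowest was at number 4 for tmtops.2 and arrb1 and at number 2 for rcvrn.1. Counts by array and by number were not made over all tested probes, so nothing is read from those of these genes. Without control 3, the 8 genes other than gucy2d and pde6c had 7 positive differences and 1 negative, with a median of 0.21 beside 0.20 on all arrays. Control 3 was the highest control of pde6a, pdc, grk1 and arrb1, so leaving it out had to raise their differences. Nothing is read from the signs without it. The pde6c difference was then 1.01, and without DY7 4 it was 0.95. Control 3 was the highest pde6c control and DY7 4 its lowest DY7 array, so leaving out either had to raise the difference. Limma called pde6c higher in both cases and when the adjustment ran over named genes alone. Since pde6c was chosen on this comparison, nothing is read from those calls. The pdc difference was 0.65 without control 3, its highest control, where limma called it.

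Rom1's partner prph2 had a difference close to 0. The prph2 levels were 1.52, 1.15, 1.63 and 1.36 in controls and 1.52, 1.15, 1.62 and 1.23 in DY7, close between arrays of the same replicate number. The difference was -0.04 ± 0.15 (limma adjusted p = 0.879). The 12 tested genes of photoreceptor structure had a median of -0.11. Limma called 0 of them higher and 1 lower, where 9.06% of all tested probes were called higher and 5.07% lower. The gene called lower was ush1c, a scaffold protein of photoreceptors and hair cells that also lies in the gut brush border. It had control levels of 5.40, 5.74, 5.54 and 5.40 and DY7 levels of 4.94, 4.13, 4.59 and 5.09. Its groups were apart, with a difference of -0.83 ± 0.20 (limma adjusted p = 0.0270), and its probe is a cross-hybridising one. Limma no longer called it without DY7 3, control 1 or control 4.

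Other structural genes had differences that missed the threshold. The crumbs gene crb2, of the apical membrane, differed by -0.10 ± 0.11 and cplx4, a complexin of the ribbon synapse, by -0.16 ± 0.15. The ciliary motor gene kif3a differed by 0.40 ± 0.12 (limma adjusted p = 0.0518, and 0.0261 with the replicate block). Control 2 was not well above background for kif3a, so its probe entered the fit through its DY7 arrays. The ciliary genes bbs2 and arl6 differed by -0.34 ± 0.20 and -0.32 ± 0.19, and bbs2 passed with the replicate block (limma adjusted p = 0.0341).

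In the visual cycle, rbp2, a cellular retinol-binding protein best known from the gut, was called higher. Its control levels were -2.61, -2.89, -2.74 and -2.54 and its DY7 levels were -2.45, -1.57, -1.90 and -1.94. DY7 1 was only just above the highest control, and the difference was 0.73 ± 0.18 (limma adjusted p = 0.0279). Control 2 was not well above background for rbp2, so its probe entered the fit through its DY7 arrays, and the call is not read as a rise. The rbp2 difference was 0.15 ± 0.26 with normexp and 0.26 ± 0.34 with no scaling, smaller than its SE in both. Requiring all 8 arrays to be well above background removed rbp2, and limma then called 0 light-sensing genes higher and 2 lower. On the reported filter, limma no longer called rbp2 without DY7 2, DY7 3, control 1, control 3 or control 4. Of the other 3 tested genes, bco1, which cleaves carotene into retinal, differed by 0.29 ± 0.12 (limma adjusted p = 0.119), dhrs7 by 0.21 ± 0.11 on a cross-hybridising probe, and the interphotoreceptor retinoid carrier rbp3 by -0.17 ± 0.17. Of 9 liver and gut markers on the array, 7 were tested and limma called 3 higher, fabp6, serpina1 and apob, by 1.20, 0.75 and 0.55 log2 units, with summed levels of 233 to 395 times the 75th percentile in controls and 307 to 387 in DY7. The other 4 were fgg at -0.49 and cpa1 at -0.16, the pancreatic elastase cela1.1 at -0.07 and alb at 0.23, none of them called, and 9.06% of all tested probes were called higher. The apob call was lost without DY7 2, DY7 3, DY7 4, control 3 or control 4. It was also lost with median scaling, no scaling, no filter on dim probes, and normexp with or without the reset of extreme local backgrounds. The fabp6 and serpina1 calls were lost with normexp and with no scaling. The part of the gut in the rbp2 and ush1c differences was not tested.

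Among 5 tested clock genes, per1, a repressor arm of the circadian clock that also answers to light, fell. Its control levels were 0.49, 0.27, 0.51 and 0.36 and its DY7 levels -0.13, -0.03, -0.08 and -0.04. The groups were apart, with a difference of -0.48 ± 0.09 (limma adjusted p = 0.0144), and limma still called per1 without any 1 of the 8 arrays. Another clock repressor, ciart, differed by -0.55 ± 0.18 with non-overlapping groups (limma adjusted p = 0.0625) and passed in the authors' deposited values (limma adjusted p = 0.0163). On DY7 1 ciart was not well above background. Its probe entered the fit through its controls, where it is higher, so that pass is not read as support for a fall. The ciart difference was -0.22 with normexp and 0.005 after extreme local backgrounds were reset, and limma called it in neither. The clock-output factor hlf differed by 0.39 ± 0.18 on a cross-hybridising probe (limma adjusted p = 0.156, and 0.0423 with the replicate block), and timeless by -0.14 ± 0.10.

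None of the 3 tested genes of the pineal list was called, 0 of 3 also having an unadjusted limma p under 0.05. The LIM homeobox gene lhx9 differed by -0.22 ± 0.12, lhx2 by 0.36 ± 0.23 and irx1 by 0.02 ± 0.12. Limma called 0 of the 2 tested photoreceptor factors, with 1 (sall3) at an unadjusted p under 0.05. The zinc finger gene sall3 differed by 0.76 ± 0.28 on a cross-hybridising probe (limma adjusted p = 0.0993, and 0.0458 with the replicate block), and prdm1, which favours photoreceptors over bipolar cells in the mouse, by -0.26 ± 0.15.

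Limma called 1 of 5 tested eye field genes, where 14.1% of all tested probes were called. That was the chromatin remodeller chd7, which fell by 0.45 on the log2 scale (SE 0.12, limma adjusted p = 0.0413). It was not called without DY7 2, DY7 3, control 1, control 3 or control 4, or with the slide as a block (limma adjusted p = 0.0534). The chd7 call was also lost with no scaling, no filter on dim probes, and normexp with or without the reset of extreme local backgrounds. The neural factor sox2 differed by -0.30 ± 0.10 with groups apart (limma adjusted p = 0.0642, and 0.0455 with the replicate block) and the retinal homeobox gene rax by 0.10 ± 0.12, both on cross-hybridising probes. Beside the same share of all tested probes, 1 of 9 tested genes listed as relatives of gucy2d and pde6c was called. That was pde4d, a phosphodiesterase of cyclic AMP, which fell by 0.59 (SE 0.15, limma adjusted p = 0.0315), and was not called without any 1 of those 5 arrays. Normexp and no filter on dim probes also lost the pde4d call. The soluble guanylate cyclase subunit gucy1b1, on a cross-hybridising probe, differed by 0.36 ± 0.11 with groups apart (limma adjusted p = 0.0541, and 0.0391 with the replicate block). The phosphodiesterase pde9a differed by 0.56 ± 0.23 (limma adjusted p = 0.127, and 0.0475 with the slide as a block) and npr3, a natriuretic peptide receptor, by -0.08 ± 0.12. Control 2 was not well above background for pde9a, so its probe entered the fit through its DY7 arrays.

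The summed level of photoreceptor markers overlapped between the groups. Of 32 listed markers, 8 besides gucy2d, pde6c and rom1 were on the array, 6 were tested and limma called none, with 1 (pdc) at an unadjusted p under 0.05. Their summed level, in multiples of the 75th percentile of the array, ran from 6.22 to 7.30 in controls and from 6.12 to 7.51 in DY7. Most of that sum came from prph2, rcvrn.1 and rho, at control means of 1.41, 0.78 and 0.30. The probes of rcvrn.1 and rho are cross-hybridising ones. Dim markers such as pdc, at a control mean of -2.80, could hardly move the sum. The photoreceptor opsin rho and the disc gene prph2 were well above background on all 8 arrays.

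Limma called some markers of neighbouring tissues, where 14.1% of all tested probes were called (9.06% higher and 5.07% lower). For retinal neurons, 11 of 15 markers on the array were tested and 1 was called, nefl, a neurofilament subunit that fell by 0.48 on the log2 scale (SE 0.12, limma adjusted p = 0.0307) and was not called without DY7 2, DY7 3, control 1 or control 4. The nefl call was also lost with normexp, no scaling and no filter on dim probes. Of the 11 tested markers, the differences of 4 were positive and of 7 negative. The horizontal cell factor onecut1.2 differed by 0.90 ± 0.31 (limma adjusted p = 0.0823). It was well above background on 2 of 4 controls and entered the fit through its DY7 arrays. Its groups were barely apart, with control 3 at -3.436 and DY7 4 at -3.432. The glutamate receptor gene grik1 differed by -0.31 ± 0.11, and gad1.1, which makes the transmitter GABA, by -0.38 ± 0.15. The summed level of the list ran from 46.0 to 55.0 in controls and from 36.9 to 44.0 in DY7. Most of it came from nefl and nefm, general neuron genes whose own sum was 31.0 to 39.1 in controls and 24.0 to 29.6 in DY7. The marker ptf1a, an amacrine and horizontal cell factor, was not well above background on any array. In the lens, 6 of 12 were tested and 2 were called, the gamma crystallins cryga.1 and cryga.7, which fell by 2.13 and 1.47 on the log2 scale. The summed levels of the lens list were 129 to 196 in controls and 131 to 158 in DY7. Most of that sum came from cryba1.2 and cryba2, at control means of 6.63 and 5.91, neither of them called. On 3 of the 4 DY7 arrays cryga.1 was not well above background, so it entered the fit through its controls and its DY7 level is poorly measured. Its difference was -0.71 with normexp and -0.41 with normexp after extreme local backgrounds were reset, and limma called it in neither. The cryga.7 call was lost without DY7 1, DY7 2 or control 4, and with normexp and no filter on dim probes. The lens genes cryab, foxe3 and hsf4 were never well above background. In pigment cells, 4 of 4 were tested and limma called 0, with 0 at an unadjusted p under 0.05, and summed levels of 3.95 to 4.59 and 3.85 to 4.58. The part of these tissues in the levels of the 4 genes was not tested.

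Tissues farther from the eye also held called markers, where 14.1% of all tested probes were called (9.06% higher and 5.07% lower). Of 3 tested skin markers, limma called xa-1 higher by 1.75 ± 0.22 log2 units and the keratin gene krt78.6, on a cross-hybridising probe, lower, with a difference of -0.46 ± 0.10 (limma adjusted p = 0.00326 and 0.0167), the latter not without DY7 2, control 1 or control 4. The krt78.6 call was also lost with normexp, no scaling and no filter on dim probes. Of 3 tested muscle markers, the slow troponin gene tnnt1 fell by 1.00 on the log2 scale (SE 0.11, limma adjusted p = 0.00185). The tnnt1 call was lost with normexp. Of 3 tested red cell markers, the erythropoietin receptor gene epor was called higher, by 0.41 ± 0.11 (limma adjusted p = 0.0413). That call was lost without DY7 1, DY7 2, DY7 3, control 1, control 3 or control 4, and with no scaling the epor difference was -0.06. The epor call was also lost with median scaling, no filter on dim probes and the slide as a block. Normexp lost it too, with or without the reset of extreme local backgrounds. The red cell markers slc4a1 and fech differed by 0.41 ± 0.14 and 0.43 ± 0.15 and were not called (limma adjusted p = 0.0703 and 0.0787). Limma called slc4a1 higher with the replicate block (adjusted p = 0.0258) and in the authors' deposited values (adjusted p = 0.0397).

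The genes whose levels most resembled each of the 4 were taken from 2979 other named genes by Pearson r over the 8 arrays. For pinopsin these were mrpl33 (0.97, a cross-hybridising probe), emg1 (0.97) and rpusd3 (0.96), for gucy2d med21 (0.96), map9 (0.94) and prpf8 (0.93), and for pde6c lhfpl2 (0.97), smc4 (0.96) and macf1 (0.94, cross-hybridising). Those nearest to rom1 were gtf3c3 (0.99, cross-hybridising), ch25h (0.98) and sin3a (0.98). These r values contain the difference between the groups. No gene of the light-sensing lists was among the nearest genes. The lists hold few of the 2979 genes, so nothing is read from that absence.

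With the group means taken out, other genes came first. For pinopsin they were atp2b2 (0.99), zic2 (0.99, cross-hybridising) and nufip2 (0.97), whose own differences between the groups were -0.35 ± 0.13, 0.23 ± 0.12 and -0.06 ± 0.11. For gucy2d they were mmd (0.98), en2 (0.92) and med21 (0.92), and for pde6c gpr158 (0.95), lhfpl2 (0.92) and rbpms (0.92). For rom1 they were cdh6 (0.99), vwc2l.2 (0.99) and hnrnpr (0.97), the last 2 on cross-hybridising probes. Lhfpl2 and med21 were the genes on both lists of a member, lhfpl2 for pde6c and med21 for gucy2d.

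The processing changed the sizes of the 4 differences more than their signs. Background correction by normexp on the spot and local background medians gave log2 differences of 0.72 for pinopsin, 0.14 for gucy2d, 0.09 for pde6c and -0.59 for rom1. With no scaling between arrays they were 1.57, 0.19, 0.35 and -1.25, where the median of all tested probes was -0.42. The difference kept its sign for each of the 4 genes under every alternative that gave a value over all arrays of the fit, and within each slide on scaled values. With normexp the SE was 0.27 for gucy2d and 0.33 for pde6c, larger than the differences. With no scaling the SE was 0.34 for both, larger than the gucy2d difference and close to that of pde6c. The sign of gucy2d and pde6c is therefore not resolved under those settings.

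**Figure D5:**
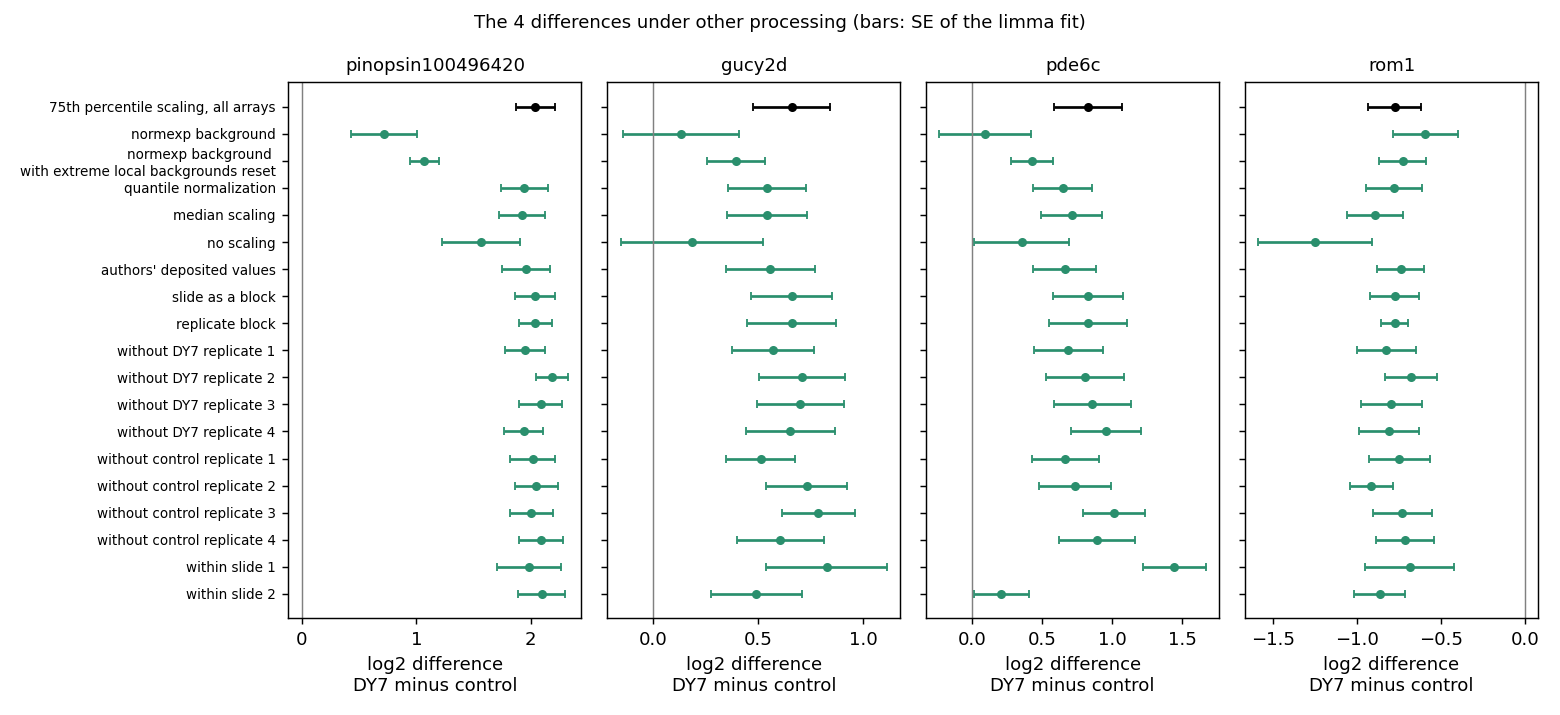
Log2 difference between DY7 and control, DY7 minus control (horizontal axis, a scale of its own in each panel, bars SE of the limma fit), for the 4 genes as reported (top) and under other processing. Pinopsin stays between 0.72 and 2.19 and rom1 between -1.25 and -0.59, while gucy2d and pde6c come down to 0.14 and 0.09 with normexp.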

How the data were processed

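The deposited scanner files hold 1 linear intensity per spot, made with Agilent Feature Extraction 10.7.3.1 (slide 1) and 10.7.1.1 (slide 2) and corrected there for background and spatial trend, per the file headers. The authors' deposited matrix holds log2 values of the same spots, which correlated at 0.986 or above with log2 processed intensity and whose column medians were 5.10, 5.27, 5.16 and 5.12 in controls and 5.19, 5.17, 5.18 and 5.19 in DY7; how they were centred is not stated in the sources used here.

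Of 45220 spots per array, 1417 were controls and were left out, and none was saturated. Spots with an outlier flag were dropped and the others of a probe averaged on the log2 scale, after which the 75th percentile of the array was subtracted. A probe was kept where all 4 arrays of either group had it well above background (20321 probes, 20289 with a value on every array). Groups were compared with limma 3.58.1 (two-sided, R 4.3.3, package data.table in version 1.17.8) on all 8 arrays, with Benjamini-Hochberg adjustment over all tested probes, and each gene was read by its brightest probe. The model was tested on simulated data. The number of arrays limits the precision of every value.

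Accessions were matched to RefSeq names of assembly UCB_Xtro_10.0, which named 5891 probes (17.9%). Per the file headers the design used build JGI 4.1, so no coordinates are given, and sequences of the probes and genes were not used here. The planned normexp alternative used the spot median, since a spot mean column was not among those used here.

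The 4 genes and all lists were chosen with earlier results of these data known. Names were taken from every probe of the 4, each list gene that was called, the up to 3 uncalled genes of smallest p per list role, and the 3 most similar genes by each measure; not every uncalled marker gene of that rule is printed. Replicate numbers come from the sample titles. Same-numbered samples deviated together from their group means (correlations 0.306, 0.107, 0.455 and 0.449 for numbers 1 to 4). They also shared a slide, so a shared number and a shared slide cannot be told apart in these correlations. The fit with the number as a block was treated as a paired one, and its values stand beside the results it changes. Other alternatives were normexp, quantile and median scaling, no scaling, the deposited values, other filters, the slide, and leaving out each array.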

Additional observations from a re-analysis of the deposited data

Results flagged for a closer look

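Values of 1 array far from the other 3 of its group were looked for in 138 groups of 4 arrays, the 4 genes and the list genes selected by the naming rule in each condition, by Dixon's 95% critical value for 4 samples. There were 6, where chance alone would give 6.9 at about 1 group in 20, and all 6 were control arrays. Rom1 was 0.59 on control 2, with the nearest control at 1.09, and without that array the rom1 difference was -0.91. The neurofilament genes nefl and nefm stood apart on different arrays, nefl at 4.31 on control 2 against 3.99 for the nearest, and nefm at 3.97 on control 1 against 4.26. The synaptic gene cplx4 was 0.65 on control 1 against 1.00, the opsin rrh 0.86 on control 4 against 1.08, and the retinoid carrier rbp3 -1.12 on control 2 against -0.66.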

How the results depend on the processing

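Under every alternative run the 4 differences kept their sign on scaled values, though with normexp those of gucy2d and pde6c were smaller than their SE. Pinopsin moved to 0.72 with normexp, 1.07 with normexp after extreme local backgrounds were reset, and 1.57 with no scaling. Gucy2d moved to 0.14 with normexp and 0.19 with no scaling, pde6c to 0.094 with normexp and 0.35 with no scaling, and rom1 to -1.25 with no scaling; pde6c was 1.44 within slide 1 and 0.21 within slide 2. Leaving out each array in turn gave 1.94 to 2.19 for pinopsin, 0.51 to 0.79 for gucy2d, 0.67 to 1.01 for pde6c and -0.91 to -0.68 for rom1. Requiring a probe to be well above background on all 8 arrays removed pinopsin and pde6c. The single-spot values were added after the data were seen.

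Limma called 2867 probes, and 14 with normexp (1454 at an unadjusted p under 0.05), 1300 with normexp after the reset, 719 with no scaling, 562 with no filter, 6 within slide 1 (3450 unadjusted) and 0 within slide 2 (3308 unadjusted). Leaving out 1 array gave 1091 (without DY7 2) to 3323 (without control 2), with 1094 without control 4, 1147 without control 1 and 1191 without DY7 3. The replicate block gave 5124 calls, 3247 higher and 1877 lower. Of the calls, 64.1% were higher in DY7 as reported, 43.8% with median scaling and 4.73% with no scaling, where the median difference of all tested probes was 0.06, -0.06 and -0.42.

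Of the 34 light-sensing genes, 3 were called as reported, 0 with normexp (2 unadjusted), 5 with quantile normalization, 1 with no scaling, 0 with no filter (10 unadjusted), 0 within each slide (5 unadjusted in each) and 8 with the replicate block. Leaving out 1 array gave 1 (without DY7 3, control 1 or control 4) to 6 (without DY7 4). The calls of rbp2 and per1 were lost with normexp, with no scaling and with no filter, and that of ush1c with normexp and with no filter. The replicate block changed the calls of gucy2d and of the genes named with it in the text. Within a slide each group has 2 arrays, and the cause of the other changes was not tested.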
